A study of Arabidopsis thaliana with 3 samples.

Results

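Peroxidases, glutathione enzymes and thiol-disulfide enzymes keep peroxide, superoxide and oxidized protein side chains in check, and 41 of the 2762 genes in the deposited comparison of *dss1(I)* with WT *Arabidopsis thaliana* seedlings were chosen as members of this group. A gene was a member when its description held a redox word (peroxidase, catalase, superoxide, glutathione, thioredoxin, glutaredoxin, peroxiredoxin, ascorbate, alternative oxidase, respiratory burst, methionine sulfoxide or quinone reductase) and the table listed no protein domain for it. Both genotypes had been grown for 14 days and then exposed to 10 mM hydrogen peroxide in agar plates for 3 days, so no untreated seedlings stand beside them. WT was Columbia-0, and *dss1(I)* was a single homozygous CRISPR/Cas9 line (*dss1(I)del25*, described in the labels as a knockdown) in the gene of a small disordered protein that binds the 26S proteasome and the recombination protein BRCA2. Each genotype had 1 poly-A library made from whole-seedling RNA combined over independent experiments, and the *dss1(V)* library of the series was not analysed here.

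The table holds only genes that the authors had called as different between these 2 libraries, so every member differs between them by construction and a gene outside the table cannot be said to be unchanged. With 1 library per genotype there is no replicate error, and no test was made. The intervals given below are exact Clopper-Pearson 95% intervals that cover counting error only. Levels are raw reads or scaled counts (reads adjusted by the authors to a common library size), and log2 ratios are those of *dss1(I)* over WT on scaled counts plus 1. The libraries held 11033843 reads on genes in *dss1(I)* and 9394592 in WT. *AtDSS1(I)*, the mutated gene, had 233 reads in *dss1(I)* against 807 in WT, at a log2 ratio of -2.005 (interval -2.24 to -1.81), lower in the library labelled as its mutant. In bulk seedlings, fewer cells of a type and less RNA per cell cannot be told apart.

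The enzymes fall into several chemistries. Class III peroxidases are secreted heme enzymes of the plant cell wall, where they use or make peroxide during lignin formation and wall growth. Glutaredoxins and thioredoxins reduce disulfides with electrons from glutathione or from thioredoxin reductases, and methionine sulfoxide reductases of the MsrB type repair oxidized methionine with the help of thiol reductants. Glutathione S-transferases join glutathione to reactive compounds, dehydroascorbate reductase regenerates ascorbate, superoxide dismutase turns superoxide into hydrogen peroxide, and ascorbate peroxidase removes that peroxide.

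Glutaredoxins, thioredoxin-worded genes and glutathione S-transferases were mostly lower in *dss1(I)*, as were called genes of similar length in general, and the class III peroxidases were divided between both directions. Of the 41 members, 14 (34.1%) were higher and 27 were lower in *dss1(I)*, beside 48.6% higher and 51.4% lower over all 2762 genes of the table. Among called genes of similar length, 19.8% were higher. The higher members were 8 of 15 class III peroxidases, 2 of 9 glutaredoxins, 2 of 8 thioredoxin-worded genes, 1 of 3 methionine sulfoxide reductases and the nucleobase-ascorbate transporter NAT1. All 3 glutathione S-transferases, the superoxide dismutase CSD1 and the ascorbate peroxidase APX5 were lower. Catalases, peroxiredoxins, glutathione peroxidases, alternative oxidases, respiratory burst oxidases and quinone reductases gave no member.

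All 41 members reached the minimum for counting a gene, 10 scaled counts in either library. Past 2-fold, 14 were higher, beside 48.1% of the 2620 genes of the table that met the minimum, and 25 were lower, beside 51%. The members just short of the limit were the glutaredoxins GRXS11 and GRXS9, with log2 ratios of -0.999 and -0.992. The whole counting interval lay past 2-fold for 3 higher members (AT4G26010, GRXS5 and TTL3), beside 14.2% of the table, and for 12 lower ones, beside 22.3%. Of these, AT4G26010 and GRXS5 met the minimum only in *dss1(I)* and the lower TRX7 only in WT, each in the library where it is high. The median log2 ratio of the members was -1.08, and that of all genes of the table was -1.02.

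**Figure D1:**
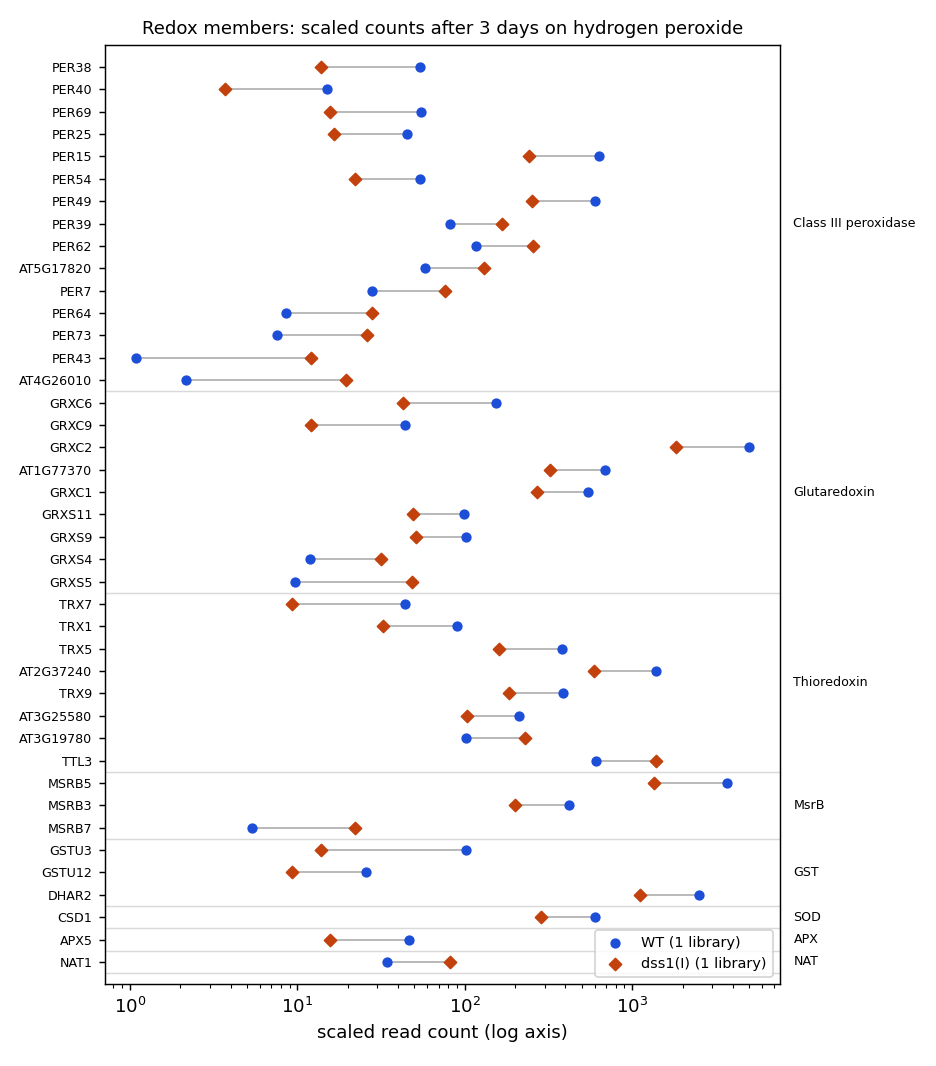
Scaled read count (log axis) of each of the 41 members in the WT library (circles) and the *dss1(I)* library (diamonds), grouped by enzyme class, with 1 library per genotype and no error bars. GRXC2, MSRB5 and DHAR2 have the most reads in WT and are lower in *dss1(I)*, while the higher peroxidases PER43 and AT4G26010 have 1 and 2 reads in WT.

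The 3 members with the most scaled counts over both libraries were lower in *dss1(I)*, although TTL3, a higher member, ranked second within the *dss1(I)* library. Glutaredoxin GRXC2 (AT5G40370), MSRB5 and DHAR2 together held 58.7% of the members' scaled counts in WT and 44.1% in *dss1(I)*. Summed over the 41 genes, the scaled counts were 9710 in *dss1(I)* and 19073 in WT, a 1.96-fold higher level in WT. Without these 3 genes, the sums were 5427 and 7873, a 1.45-fold difference. The members took 0.0949% of all reads on genes in *dss1(I)* and 0.188% in WT.

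Glutaredoxins differ in the cysteine site that does their chemistry, and the codons of this site are shown for 5 of them because the members with opposite directions share a site type. The classical type has a cysteine, a proline, a variable residue and a second cysteine, whereas the CC type, which is particular to land plants, begins with adjacent cysteines. Each line gives coding-strand bases of the TAIR10.1 genome read 5′ to 3′, with the 4 codons of the site in capitals.
GRXS4: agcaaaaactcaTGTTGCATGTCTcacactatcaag
GRXS5: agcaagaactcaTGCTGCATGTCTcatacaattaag
GRXC9: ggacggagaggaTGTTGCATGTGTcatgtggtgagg
GRXC6: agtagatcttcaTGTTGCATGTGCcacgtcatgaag
GRXC2: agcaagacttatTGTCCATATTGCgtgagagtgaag
These windows lie at chr4:8931861-8931896 (GRXS4, plus strand), chr4:8934492-8934527 (GRXS5, plus strand), chr1:10013871-10013906 (GRXC9, minus strand), chr4:15941016-15941051 (GRXC6, minus strand) and chr5:16148736-16148771 (GRXC2, minus strand), all in coding exons. In the CC-type windows of GRXS4 and GRXS5 the fourth codon is one for serine. In those of GRXC9 and GRXC6 it is one for cysteine. The CC-type members GRXS11 and GRXS9, whose windows are not printed, have a serine codon there as well, and both were lower in *dss1(I)*. GRXC2 has a cysteine codon, a proline codon, a tyrosine codon and a second cysteine codon.

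Among the 9 glutaredoxins, 7 were lower in *dss1(I)*, with a median log2 ratio of -1.002 over the class. GRXC2, a classical glutaredoxin, had 1972 reads in *dss1(I)* against 4642 in WT, at a log2 ratio of -1.45 (interval -1.54 to -1.39). Per gene length, its level was 143 FPKM in *dss1(I)* and 397 FPKM in WT, the highest of the glutaredoxin members in both libraries. The further members with a site of the classical or a related type were lower as well. AT1G77370 had 347 and 641 reads in *dss1(I)* and WT. GRXC1, whose second site codon is one for glycine, had 292 and 504 reads.

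CC-type glutaredoxins were found on both sides. GRXC9, which is known to act together with TGA transcription factors, had 13 reads in *dss1(I)* against 41 in WT, at a log2 ratio of -1.79 (interval -2.91 to -0.96). GRXC6 had 46 and 143 reads, at a log2 ratio of -1.83 (interval -2.38 to -1.38). GRXS11 (53 and 92 reads) and GRXS9 (55 and 95 reads) were lower by about the 2-fold limit. The 2 higher members, in contrast, were both CC-type genes and were next to each other in the genome.

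GRXS4 had 34 reads in *dss1(I)* against 11 in WT, at a log2 ratio of 1.34 (interval 0.38 to 2.53). Its neighbour GRXS5, named here after its values were seen, had 52 and 9 reads, at a log2 ratio of 2.20 (interval 1.26 to 3.51). The genes lie 1978 bp apart on chromosome 4 and their coding sequences were 89.0% identical over 309 bases. The longest stretch of identical bases was 53 for GRXS4, shared with GRXS5, and 65 for GRXS5, shared with AT4G15700, which is not in the table. Both stretches are shorter than a read of 150 bases, and whether reads were divided among these copies was not tested. As related neighbours, the 2 genes are not independent observations. Glutaredoxins were higher in 22.2% of cases, beside 11.9% of the called genes of similar length. This share rests in part on GRXS5, which met the minimum of 10 scaled counts only in *dss1(I)*, where it is high. Of the 8 glutaredoxins with at least 10 scaled counts in both libraries, 1 was higher and 7 lower.

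Thioredoxin-worded genes gave 6 lower and 2 higher members. TRX5, the h-type thioredoxin that is known to reduce the immune regulator NPR1, had 172 reads in *dss1(I)* against 356 in WT, at a log2 ratio of -1.26 (interval -1.55 to -1.01). TRX1 had 35 and 83 reads, at a log2 ratio of -1.44 (interval -2.09 to -0.89). These are cytosolic thioredoxins of the same h type, and TRX9 (199 and 360 reads) and TRX7 (10 and 41 reads) lay on the same side. AT2G37240, described as a chloroplast thioredoxin-like protein, had the most reads of the lower genes, 637 in *dss1(I)* and 1295 in WT, at a log2 ratio of -1.24 (interval -1.39 to -1.12). AT3G25580 had 112 and 196 reads.

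Neither of the higher genes in this class is a typical thioredoxin. TTL3, whose description names it an inactive thioredoxin with tetratricopeptide repeats and which is known as a scaffold of brassinosteroid signalling, had 1488 reads in *dss1(I)* against 565 in WT, at a log2 ratio of 1.18 (interval 1.02 to 1.31). AT3G19780, for which the description gives only a thioredoxin fold and a domain of unknown function, had 248 and 95 reads, at a log2 ratio of 1.16 (interval 0.81 to 1.51). These were also the longest members, at 2827 and 3817 bp, and 89.0% of the called genes of similar length were higher. AT3G19780 shares 396 bases with an annotated gene on the opposite strand, and TTL3 also overlaps a gene on the opposite strand.

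Methionine sulfoxide reductases of the B type were divided by level. MSRB5 had 1451 reads in *dss1(I)* against 3431 in WT, at a log2 ratio of -1.46 (interval -1.56 to -1.38). Per gene length it was the most abundant member in both libraries, at 173 FPKM in *dss1(I)* and 480 FPKM in WT. MSRB3, which lies 4569 bp from it on chromosome 4 and is 81.4% identical in coding sequence over the 414 aligned bases, had 214 and 390 reads, at a log2 ratio of -1.08 (interval -1.35 to -0.85). MSRB7 was the only higher one of the 3, with 24 reads in *dss1(I)* against 5 in WT, at a log2 ratio of 1.86 (interval 0.61 to 3.78). It shares a stretch of 216 identical bases with MSRB8, longer than a read of 150 bases, so its counts are uncertain.

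Glutathione S-transferases were lower without exception among the 3 members. GSTU3 had the lowest ratio of all members, with 15 reads in *dss1(I)* against 94 in WT, at a log2 ratio of -2.78 (interval -3.77 to -2.09). DHAR2, a cytosolic dehydroascorbate reductase of this superfamily, had 1195 and 2314 reads, at a log2 ratio of -1.17 (interval -1.29 to -1.08). GSTU12 had 10 and 24 reads, at a log2 ratio of -1.39 (interval -2.72 to -0.38). Among called genes of similar length, 11.3% were higher.

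The rule left out 14 genes whose descriptions hold the same words but whose row names a protein domain, and 12 of these are glutathione S-transferases, all 12 lower, beside 51.4% of all genes of the table and 87.0% of the called genes of similar length. GSTU3 lies on the minus strand of chromosome 2 within a stretch of 14.6 kb. This stretch also holds the called genes GSTU7 (191 reads in *dss1(I)* against 394 in WT), GSTU4 (141 and 393 reads) and GSTU1 (1219 and 2333 reads). Other genes of the stretch were not looked up. GSTU3 and GSTU4 share 33 identical bases at most. With these 14 genes added, 15 of 55 (27.3%) were higher, beside 19.4% of the called genes of similar length, and 37 were lower past 2-fold. The gap to that background was 7.85 percentage points, against 14.3 for the 41 members. The single higher one of the 14 was the respiratory burst oxidase gene RBOHG, with 9 reads in *dss1(I)* against 0 in WT.

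Enzymes of superoxide and ascorbate were few in the table. CSD1, the cytosolic copper-zinc superoxide dismutase, had 307 reads in *dss1(I)* against 554 in WT, at a log2 ratio of -1.07 (interval -1.29 to -0.88). It overlaps emb2411 on the opposite strand, a called gene with 120 reads in *dss1(I)* against 46 in WT, the opposite direction. APX5, described as a peroxisomal ascorbate peroxidase, had 17 and 43 reads, at a log2 ratio of -1.50 (interval -2.47 to -0.73). NAT1 had 88 and 32 reads, at a log2 ratio of 1.22 (interval 0.63 to 1.86), and was chosen through the word ascorbate in its name although it is no redox enzyme.

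**Figure D2:**
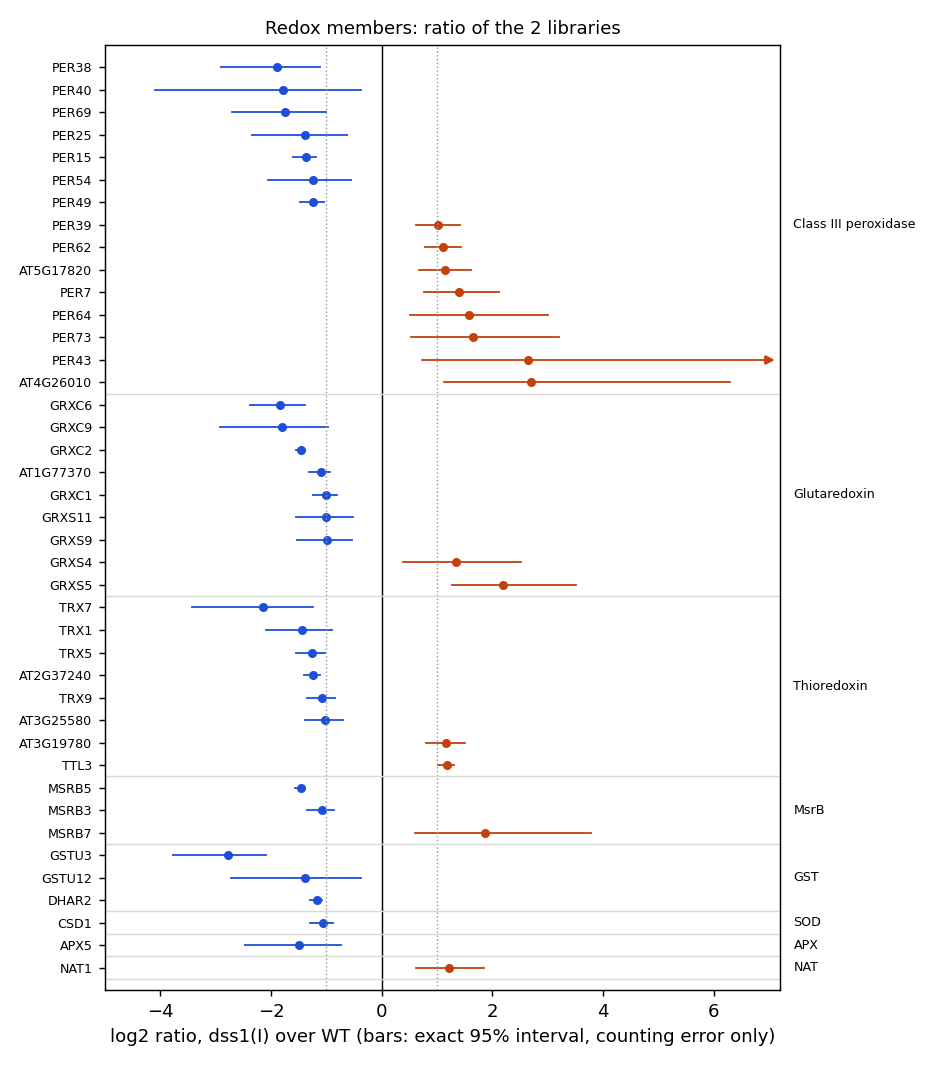
Log2 ratio of *dss1(I)* over WT for the 41 members, grouped by enzyme class, with exact 95% intervals that cover counting error only and dotted lines at 2-fold. The arrow marks an interval that runs past the axis (PER43, up to 8.88), and the glutaredoxins, thioredoxins and glutathione S-transferases lie mostly to the left while the peroxidases lie on both sides.

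Class III peroxidases were the largest class, with 8 higher and 7 lower genes and a median log2 ratio of 1.02. In WT the lower ones included the most abundant peroxidases. In *dss1(I)* the most abundant were PER62, a higher one (276 reads), and PER49, a lower one (274 reads), nearly level. PER15 had 262 reads in *dss1(I)* against 585 in WT, at a log2 ratio of -1.37 (interval -1.61 to -1.18). PER49 had 274 and 557 reads. Together the 7 lower genes had 1455 scaled counts in WT and 569 in *dss1(I)*, while the 8 higher ones had 305 in WT and 714 in *dss1(I)*.

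Lower peroxidases with fewer reads were PER38 (15 reads in *dss1(I)* against 50 in WT), PER69 (17 and 51), PER25 (18 and 42), PER54 (24 and 50) and PER40 (4 and 14). Their log2 ratios ran from -1.88 for PER38 to -1.24 for PER54. The intervals of PER38, PER69, PER15 and PER49 lay wholly past 2-fold. PER15 shares 126 identical bases with its neighbour AT2G18140, fewer than a read of 150 bases, and whether reads were divided between them was not tested.

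Higher peroxidases with the most reads were PER62, with 276 reads in *dss1(I)* against 109 in WT, and PER39, with 180 and 76 reads. PER62 was at a log2 ratio of 1.12 (interval 0.78 to 1.44) and PER39 one of 1.02 (interval 0.62 to 1.42). AT5G17820 had 140 and 54 reads, at a log2 ratio of 1.14 (interval 0.68 to 1.62). PER7 had 82 and 26 reads, at a log2 ratio of 1.41 (interval 0.77 to 2.12).

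The remaining higher peroxidases had at most 8 reads in WT. PER64, known for its part in lignin deposition at the Casparian strip of the root, had 30 reads in *dss1(I)* against 8 in WT. PER73 had 28 and 7 reads. AT4G26010 had 21 and 2 reads, at a log2 ratio of 2.69 (interval 1.13 to 6.30), and PER43 had 13 and 1 reads, at a log2 ratio of 2.65 (interval 0.73 to 8.88). The last 2 genes are 8906 bp apart on chromosome 4 and their coding sequences were 59.6% identical, so that they are related neighbours with few reads each.

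The direction of the peroxidase class depended on which of its genes were counted. Of the 9 peroxidases that reached 50 scaled counts in either library, 4 were higher and 5 lower, and the median log2 ratio turned to -1.24. Of the 8 peroxidases that overlap no other annotated gene, 3 (PER62, PER39 and AT5G17820) were higher and 5 lower, with a median of -1.24. The higher genes AT4G26010, PER7, PER43, PER73 and PER64 each overlap a gene on the opposite strand, by 423 identical bases in the case of PER43. The lower genes PER38 and PER40 overlap one as well, by 143 and 103 identical bases. Whether the counting used strand is not given in the sources used here. In the whole group 13 members overlap another annotated gene, 12 of them a gene on the opposite strand, and the other 28 members were 7 higher and 21 lower.

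Markers of root tissue gave little to compare with. Of 9 root and root hair markers, 2 were in the table. Both were higher in *dss1(I)*, beside 48.6% of all genes of the table and 17.6% of the called genes of similar length. Their summed scaled counts were 94.6 in *dss1(I)* and 17.3 in WT. These 2 markers were the root hair wall protein gene PRP3 (74 and 9 reads) and PER73, which is a member itself. None of 9 leaf and photosynthesis markers was among the called genes. The part of root RNA in the peroxidase values was not tested.

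**Figure D3:**
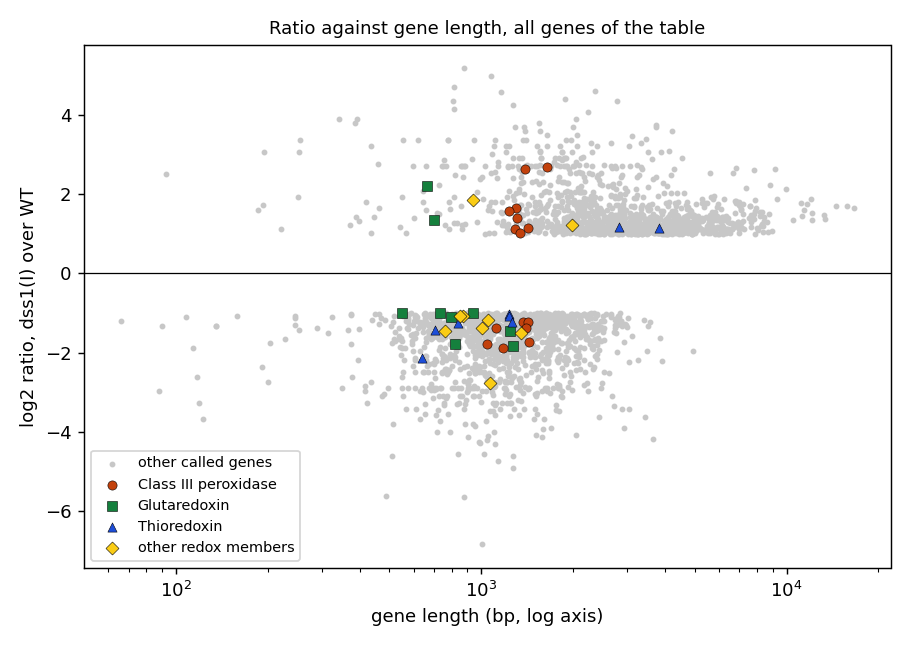
Log2 ratio of *dss1(I)* over WT against gene length (log axis) for all 2762 genes of the table, with the members coloured by enzyme class. Short genes lie mostly below 0 and long genes above it, the gap around 0 is there since uncalled genes are not in the table, and 8 peroxidases of 1231 to 1648 bp lie above 0.

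Gene length went with direction throughout the table, where the median length was 2913 bp for the higher genes and 1184 bp for the lower ones. Members are short, with a median of 1231 bp and a range from 550 to 3817 bp, so the share of higher members was read against called genes within 20% of each member's length. On this footing 34.1% of the members were higher beside 19.8% of the genes of similar length, although the share over the whole table was 48.6%. Of the 14 higher members, 8 were peroxidases. With at least 10 scaled counts in both libraries, 8 of 32 members were higher, and no share at similar length was computed for those 32. Among the 3 classes with more than 3 genes, the peroxidases stood furthest above their length background, with 53.3% higher beside 20.4%. Of the 8 thioredoxin-worded genes, 2 (25%) were higher, beside 31.9%. That background averages unlike lengths, at 12.9% for the 6 lower genes and 89.0% for the 2 long higher ones. The peroxidase share rests in part on PER64, PER73, AT4G26010 and PER43, which met the minimum only in *dss1(I)*, where they are high. Of the 10 peroxidases with at least 10 scaled counts in both libraries, 4 were higher and 6 lower.

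**Figure D4:**
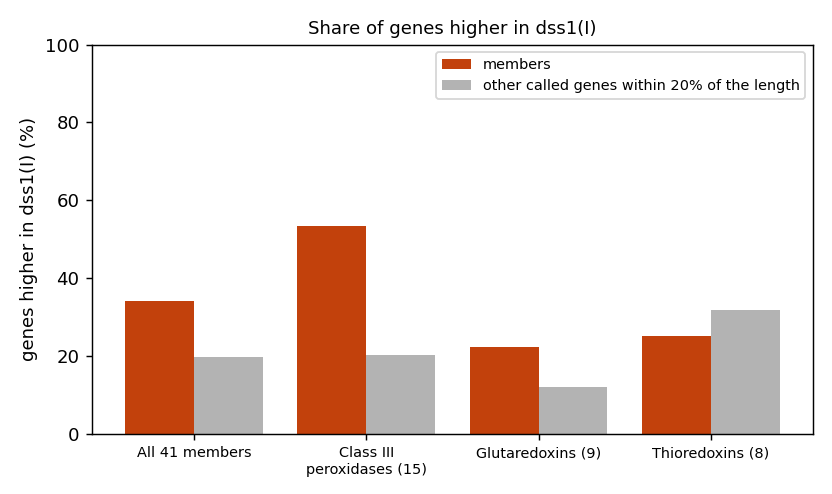
Percentage of genes higher in *dss1(I)* among the members and, beside it, among other called genes within 20% of each member's length, averaged over the members. The bars carry no error because no replicate exists, and the peroxidase bars (53.3% and 20.4%) are the furthest apart of the 4 pairs drawn. Of the 10 peroxidases with at least 10 scaled counts in both libraries, 4 were higher and 6 lower.

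Within the peroxidases, length did not separate the directions. The 8 higher genes had a median length of 1323 bp and the 7 lower ones of 1375 bp. Over the 28 members that overlap no other gene, 25% were higher beside 16.1% of the called genes of similar length. The members lie on all 5 chromosomes, and the pairs GRXS4 with GRXS5, MSRB3 with MSRB5 and PER43 with AT4G26010 were the ones within 10 kb of each other. Each pair shared a direction.

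Promoters were searched for TGACG, the core of the as-1 element bound by TGA factors, on both strands from 250 bases before to 50 after each gene's start in TAIR10.1. It was present in 13 of 41 members (31.7%), beside 23.1% of 27443 protein-coding promoters. By direction, 11 of 27 lower members (40.7%) and 2 of 14 higher members (14.3%) held it, beside 27.4% of the lower and 24.3% of the higher genes of the table. The lower members with a match came from 6 classes, among them GSTU3, GRXC2, GRXC9, TRX5, CSD1 and MSRB3. The W-box core TTGAC was in 65.9% of the members, 52.7% of the genes of the table and 50.5% of all promoters. It was in 63.0% of the lower and 71.4% of the higher members, beside 56.7% of the lower and 48.5% of the higher genes of the table. The G box CACGTG was in 9.76% of the members, 9.48% of the genes of the table and 7.68% of all promoters. A match is a run of letters and not a shown binding site.

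Of the members, 4 (9.76%) held TGACG at 2 places. At 2 or more places it was in 5.22% of the genes of the table and 4.44% of all protein-coding promoters. For these 4 members, the stretches that carry both matches are shown with the motif in capitals (CGTCA is its reverse strand), read 5′ to 3′ in the direction of the gene.
CSD1: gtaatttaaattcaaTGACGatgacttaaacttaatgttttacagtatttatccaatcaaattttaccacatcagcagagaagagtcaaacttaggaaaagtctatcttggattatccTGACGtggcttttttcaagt
PER40: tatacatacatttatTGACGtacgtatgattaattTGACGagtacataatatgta
GRXC2: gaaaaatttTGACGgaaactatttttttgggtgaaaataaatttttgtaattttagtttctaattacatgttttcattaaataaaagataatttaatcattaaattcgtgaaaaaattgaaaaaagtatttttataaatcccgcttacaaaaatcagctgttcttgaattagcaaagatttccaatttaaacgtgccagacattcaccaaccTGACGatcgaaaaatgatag
AT4G26010: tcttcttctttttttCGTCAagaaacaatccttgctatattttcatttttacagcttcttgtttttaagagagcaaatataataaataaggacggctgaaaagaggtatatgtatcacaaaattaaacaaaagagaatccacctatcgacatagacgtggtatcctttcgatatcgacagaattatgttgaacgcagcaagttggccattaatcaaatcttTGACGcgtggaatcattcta
They lie at chr1:2826887-2827024 (CSD1, plus strand), chr4:9204844-9204898 (PER40, plus strand), chr5:16149275-16149506 (GRXC2, minus strand) and chr4:13200165-13200405 (AT4G26010, plus strand). In PER40 the matches start 20 bases apart, and in CSD1 103 bases apart. CSD1, PER40 and GRXC2 were lower in *dss1(I)*, and AT4G26010 was higher.

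Known antioxidant genes were looked up by a list of 65 identifiers, of which 6 were in the table and 2 (CSD1 and DHAR2) are members. The 4 others have a named domain or a description without the redox words. APX2, a heat- and light-induced cytosolic ascorbate peroxidase, had 1 read in *dss1(I)* and 11 in WT, and the alternative oxidase gene AOX3 (AOX1D in its description) of the mitochondrial respiratory chain had 69 and 216 reads. The respiratory burst oxidase gene RBOHC, known from root hair growth, was higher with 33 and 11 reads, as was RBOHG. The catalases and the main cytosolic ascorbate peroxidase APX1 were not among the called genes.

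Of 11 oxidative stress markers, 8 were in the table and all 8 were lower in *dss1(I)*, beside 51.4% of all genes of the table and 83.2% of the called genes of similar length. They had summed scaled counts of 654 in *dss1(I)* and 2579 in WT. ZAT12, a zinc-finger regulator induced by peroxide, had 105 and 458 reads, and the peroxide-responsive kinase gene OXI1 had 44 and 153. The markers were not chosen by the redox words and none of them is a member.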

How the data were processed

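Poly-A RNA of 1 *dss1(I)* and 1 WT library was compared. According to the methods and processing notes, the authors used fastp to filter the reads, HISAT2 to align them to TAIR10 and featureCounts to count them by gene. The deposited raw counts are whole reads without normalization. The deposited scaled counts are a signal derived by the authors with edgeR, within 1% of a constant multiple of the raw counts in each library. The authors derived the deposited FPKM values from count, gene length and library total. The library totals were recovered from count, length and FPKM. Columns of log2 fold changes, p-values and adjusted p-values from the authors' own comparison were not used. The number of per-sample columns that matched no sample was 0.

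Log2 ratios used a pseudocount of 1 and, for counts past 2-fold, a minimum scaled count of 10 in a library. Intervals were exact Clopper-Pearson intervals conditional on the sum of the 2 counts. They used raw reads and the library totals, without a pseudocount. Reads are not independent molecules. Members and lists were chosen with earlier results of these data known. Named genes were all members of classes of 3 or fewer, the most abundant and most changed members of larger classes, the 10 largest rises and falls with at least 10 scaled counts in both libraries, listed antioxidant members and *AtDSS1(I)*. Other members were named after their values were seen, to account for all 41. All 41 had the same start and end in TAIR10.1 RefSeq, from which sequences and overlaps were read. Protein sequences were not used here, so sites and identities were taken from coding bases. Ratios, intervals and length shares were tested on simulated data. Alternatives were other pseudocounts, minimums, scalings, thresholds, length windows and member sets. The software was scipy 1.17.1, matplotlib 3.10.9, pandas 2.3.3 and numpy 2.4.6 under Python 3.11.15.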

Additional observations from a re-analysis of the deposited data

How the results depend on the processing

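No paired analysis was possible because only 1 library per genotype was sequenced. The 14 higher and 25 lower members past 2-fold became 3 and 2 at a 4-fold threshold, and 3 and 12 when the whole counting interval had to lie past 2-fold. A minimum of 50 left 7 higher members and turned the median log2 ratio of the peroxidases to -1.24. Without the members that overlap another annotated gene, an alternative chosen after seeing the data, 7 were higher. Scaling by the median ratio over the table, which moved the median of all genes by 1.011 on the log2 scale, left 2 lower members and turned the median of the glutaredoxins to 0.0115. Scaling to equal totals over the table moved that median by 0.15 and turned no direction. Without GRXC2, MSRB5 and DHAR2 the summed counts were 1.45-fold higher in WT. The other pseudocounts and the library totals kept both counts within 1.5 times. The gap between the share of members higher and that at similar length, 14.3 percentage points, ran from 14.0 to 15.1 over the other length windows and was 7.85 with the 14 genes of named domain added (also chosen after seeing the data) and 8.90 without overlapping members. Depth limits the 9 members with fewer than 10 scaled counts in a library, 5 of them peroxidases.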
